A study of Homo sapiens with 12 samples.

Results

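The retinoid metabolism and transport genes described here are 9 genes that carry, make or break down retinoic acid: DHRS3, CYP26A1, CYP26B1, CYP26C1, RDH10, ALDH1A2, STRA6, CRABP1 and CRABP2. They were chosen by name from 19970 protein-coding genes, and their H3K4me2 peaks were those in the gene body or within 50 kb of the canonical start site. Overlapping or touching peaks were joined into regions, which gave 87 of the 84577 regions of the study. H3K4me2, dimethylation of lysine 4 of histone H3, marks promoters and enhancers. It was profiled by ChIP-seq in U-937 cells, an established human line with features of monocytes. The sample titles label them AML (acute myeloid leukaemia) cells. There were 4 groups, each collected after 24 hours: cells given only the vehicle DMSO, cells given 0.1 µM ATRA (all-trans retinoic acid), cells given 0.1 µM Corin, and cells given both drugs at 0.1 µM each. Corin is a synthetic inhibitor that joins the activities of an LSD1 demethylase inhibitor and a histone deacetylase inhibitor, both directed at the CoREST complex. LSD1 removes methyl groups from lysine 4 of histone H3, so the measured mark is one of its substrates. Each treatment had 2 H3K4me2 libraries and 1 input library, 12 libraries in all, and 1 peak list was deposited per treatment. No value per library was used, so no spread between replicates and no p-value stands behind any difference between lists.

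Retinol enters cells through the receptor STRA6 and is oxidised to retinal, by RDH10 among others, and then to retinoic acid by ALDH1A2. DHRS3 works against the first of these steps by reducing retinal back to retinol. CRABP1 and CRABP2 bind retinoic acid in the cytoplasm, and CRABP2 is known to pass it to nuclear receptors. CYP26A1, CYP26B1 and CYP26C1 hydroxylate retinoic acid and so begin its removal. Several of these genes are textbook targets of the retinoic acid receptor, which binds as a heterodimer with RXR to direct repeats of a short half-site, and their response to retinoic acid forms a feedback loop.

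The sequences that bear on this receptor are those in H3K4me2 regions of the members that hold a direct repeat of the half-site AGGTCA or of its variant forms AGTTCA and also GGGTCA and also GGTTCA, in any combination, searched on both strands, with 5, 2 or 1 bases between the repeats (DR5, DR2, DR1). Shown are every DR5 and DR1 found and, of the DR2 matches, the one in a region that all 3 drug lists held and DMSO lacked, with 60 flanking bases on each side, on GRCh38 and on the strand of the gene. Capitals mark the half-sites, which read TGAACT (CYP26A1) and TGACCT (ALDH1A2) where the repeat lies on the opposite strand.
CYP26A1 DR5, before the start site, chr10:93073743-93073879 (+): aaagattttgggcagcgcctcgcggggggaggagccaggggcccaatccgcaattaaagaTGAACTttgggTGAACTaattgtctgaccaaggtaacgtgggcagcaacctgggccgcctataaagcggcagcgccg
DHRS3 DR5, distal in the first intron, chr1:12595922-12596058 (-): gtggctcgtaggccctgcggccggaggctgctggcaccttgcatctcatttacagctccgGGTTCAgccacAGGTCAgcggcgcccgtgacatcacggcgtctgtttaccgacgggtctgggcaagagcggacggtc
DHRS3 DR5, proximal in the first intron, chr1:12604543-12604679 (-): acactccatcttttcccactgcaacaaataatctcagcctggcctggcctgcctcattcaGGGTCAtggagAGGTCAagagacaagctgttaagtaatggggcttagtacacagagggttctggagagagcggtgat
ALDH1A2 DR2, intron of the long annotated body, chr15:58282421-58282554 (-): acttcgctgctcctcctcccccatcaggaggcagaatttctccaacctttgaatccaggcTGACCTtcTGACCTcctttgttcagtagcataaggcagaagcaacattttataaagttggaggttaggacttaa
CRABP2 DR1, before the start site, chr1:156705968-156706100 (-): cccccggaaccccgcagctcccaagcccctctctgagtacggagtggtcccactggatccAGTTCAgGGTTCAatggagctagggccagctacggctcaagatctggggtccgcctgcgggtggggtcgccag

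A DR5 was found in 3 of the 87 regions near the members (3.45%), beside 391 of all 84577 regions (0.462%). The CYP26A1 repeat was centred 82 bp before the canonical start site, under a peak in all 4 lists, and 0.370% of 15125 regions of similar length held a DR5. Of the 35116 RefSeq promoter sequences (GRCh38.p14), each 300 bases long, 31 held a DR5 (0.0883%), and among the 8 members matched in that table CYP26A1 alone had any of the motifs whole in a promoter. The CRABP2 DR1 (chr1:156706028-156706040) crossed the upstream edge of the CRABP2 promoter sequence, at position 156706034, and so was not counted there. The distal DHRS3 repeat was centred 22220 bp downstream of the start site under peaks of all 4 lists, in a region class of which 1.01% held a DR5. The proximal DHRS3 repeat, 13599 bp downstream, lay wholly under a peak in Corin alone. An ATRA peak began at position 12604609, inside the repeat (12604603-12604619), and in DMSO and ATRA+Corin the repeat fell in the gap between neighbouring peaks. A DR2 was present in 4 member regions (4.60%), below the 6.18% of all regions, and a DR1 in 1 (1.15%, beside 0.682%). The ALDH1A2 DR2 was chosen for display because its region held peaks in all 3 drug lists and none in DMSO. A DHRS3 DR2 not shown (chr1:12629045-12629058) also lay under peaks of all 3 drug lists and not of DMSO, in a region that DMSO held. The remaining DR2 matches, at DHRS3 and ALDH1A2, lay under ATRA+Corin peaks alone. A match in these letters is a description of the sequence, and binding of a receptor was not measured.

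The lists held 65172 peaks in DMSO, 66385 in ATRA, 73997 in Corin and 83969 in ATRA+Corin, which joined into 50651, 55980, 60428 and 74264 regions. The lists differed in strength as well as in length: the median −log10 q, the caller's measure of confidence, was 13.1 in DMSO, 20.4 in ATRA, 13.9 in Corin and 14.2 in ATRA+Corin. Sequencing depth is not given by these lists, and its part in the differences described here was not tested. As a check of the label, 9 of 10 monocytic and myeloid marker genes had a peak within 1 kb of the start site in every list, with MPO as the exception. The same held for 1 of 3 T cell markers (TCF7), 0 of 3 erythroid and 0 of 3 epithelial markers.

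Near the 9 retinoid genes there were 51 regions in DMSO, 55 in ATRA, 59 in Corin and 77 in ATRA+Corin. All 9 had at least 1 region in every list, where 87.5% (DMSO), 88.3% (ATRA), 88.6% (Corin) and 89.5% (ATRA+Corin) of protein-coding genes did. The median member had 5, 4, 6 and 7 regions in the same order, beside 4, 4, 5 and 6 over all protein-coding genes. The members ranged from CYP26B1 and CYP26C1, with 2 regions in each list, to ALDH1A2, with 16, 18, 19 and 23, in the same order of lists. The canonical start site itself lay under a peak for 5 members in DMSO (DHRS3, CYP26A1, RDH10, STRA6 and CRABP2) and for the same genes without CRABP2 in the other 3 lists. Over all genes that share was 47.3% in DMSO, 48.1% in ATRA and 38% in each Corin list. A peak within 1 kb of the start site was found for the same 5 genes in every list, CRABP2 included, beside 61.3% of all genes in DMSO, 61.5% in ATRA, 61.5% in Corin and 62.3% in ATRA+Corin. CYP26B1, CYP26C1, ALDH1A2 and CRABP1 had none in any list.

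**Figure D1:**
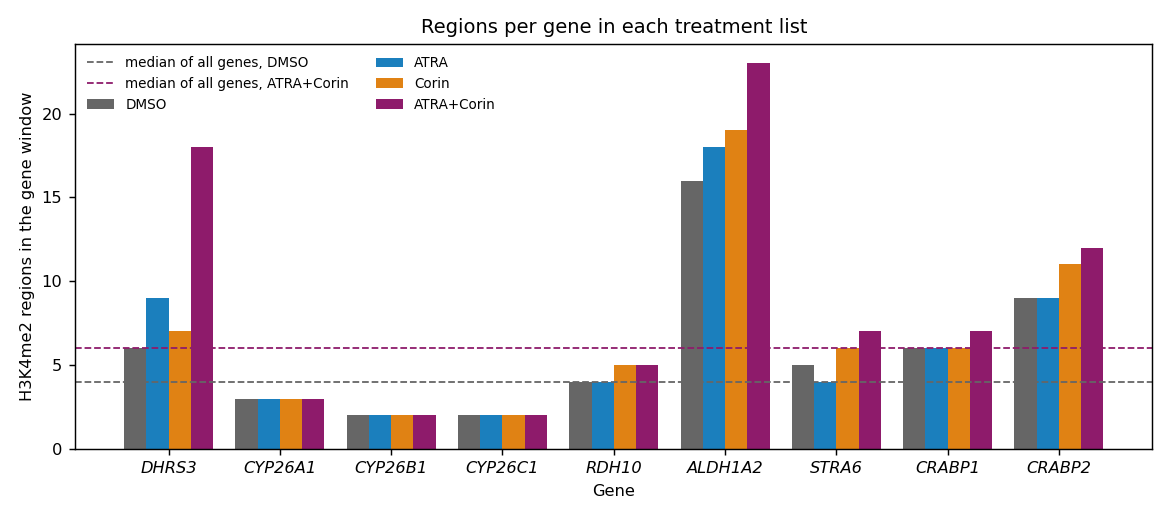
Number of H3K4me2 regions (vertical axis) in the window of each of the 9 genes, with 1 bar for each of the 4 peak lists and no error bars because each treatment has 1 list. DHRS3 goes from 6 regions in DMSO to 18 in ATRA+Corin and ALDH1A2 from 16 to 23, while the 3 CYP26 genes have the same number in every list.

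Compared with DMSO, the ATRA list added 9 regions near the members and lacked 5, the Corin list added 13 and lacked 5, and the ATRA+Corin list added 31 and lacked 5. The added regions fell near 2 of 9 members with ATRA, where 42% of all protein-coding genes had an added region. They fell near 5 of 9 with Corin (54% of all genes) and near 6 of 9 with both drugs (67.8% of all genes), shares close to those of genes at large. Regions lost relative to DMSO were found near 2 of 9 members in each of these comparisons, beside 24.8%, 25.8% and 20.3% of all genes. Against ATRA alone, the combination added 23 regions and lacked 1, with added regions near 6 of 9 members (63.2% of all genes) and a lost one near 1 (21.6%). Against Corin alone it added 23 and lacked 5, again near 6 of 9 members (59% of all genes), with lost ones near 2 (28.7%). These comparisons share lists with each other. The mean net number of regions per gene for both drugs against DMSO was 2.89 over the members and 1.71 over all genes, while the median was 1 in both sets. Of the 31 added regions in that comparison, 12 lay near DHRS3, 11 near ALDH1A2, 4 near CRABP2, 2 near STRA6, and 1 each near RDH10 and CRABP1.

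Most of the added regions were weak. Of the 31 added by both drugs over DMSO, 13 (41.9%) had a −log10 q of at least 5 in the ATRA+Corin list, beside 42.0% of all 27150 regions added in that comparison. Their median −log10 q was 4.57, against 31.1 for the 46 regions that both lists held. With every list cut to its 65172 strongest peaks, the number of DMSO peaks, the net number for both drugs against DMSO was 9 rather than 26. With DHRS3 left out it was 14, and with all windows cut to 10 kb around the start site it was 4.

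Of the 87 regions, 45 (51.7%) held a peak in all 4 lists, beside 51.2% of all regions. The combination alone held 17 (19.5%, beside 16.3%), the ATRA lists alone, with or without Corin, shared 6 (6.90%, beside 3.59%) and the Corin lists alone shared 5 (5.75%, beside 7.31%). DMSO alone held 4 (4.60%, beside 2.20%), all of them in the ALDH1A2 body. No region near a member was found in the ATRA list alone, a pattern of 2.90% of all regions. Relative to the annotated gene bodies, which span all transcripts of a gene, 45 regions lay in introns, 7 overlapped exons, 23 lay upstream and 12 downstream. Many of the intron regions were in the long ALDH1A2 body, upstream of its canonical start site.

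The length of sequence under peaks near the members was 82.4 kb in DMSO, 100.5 kb in ATRA, 106.9 kb in Corin and 129.6 kb in ATRA+Corin. Peaks covered a longer total in ATRA than in DMSO for 8 of 9 members (69.2% of all genes), in Corin for 8 of 9 (80.3%) and in ATRA+Corin for 9 of 9 (83.7%). The median member's ratio to DMSO was 1.23 in ATRA, 1.30 in Corin and 1.63 in ATRA+Corin, and over all genes with a DMSO peak it was 1.09, 1.23 and 1.36. Against ATRA alone the combination covered more for 8 of 9 members (81.5% of all genes), and against Corin alone for 7 of 9 (70.7%). CYP26C1 was the member with a shorter total in ATRA and in Corin, at 0.978 and 0.963 of DMSO. Part of this came from regions that every list held: of the 45, 34 were longer in ATRA than in DMSO (75.6%, beside 68.9% of all such regions), 32 in Corin (71.1%, beside 78.3%) and 41 in ATRA+Corin (91.1%, beside 83.6%). In ATRA+Corin 32 of them were longer than in ATRA (71.1%, beside 76.1%) and 33 longer than in Corin (73.3%, beside 64.3%).

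**Figure D2:**
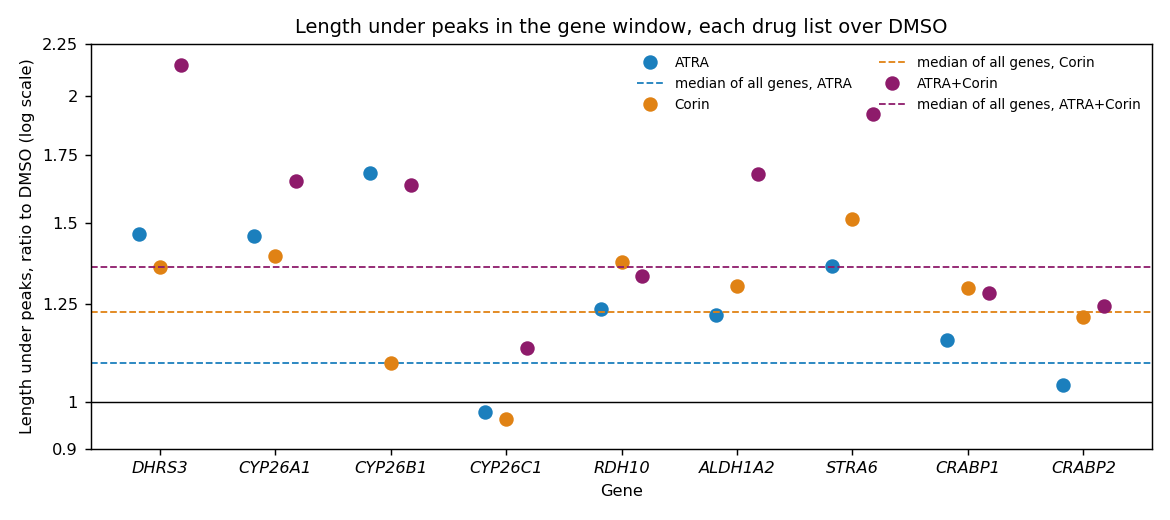
Length under H3K4me2 peaks in each drug list divided by the length in DMSO for each of the 9 genes, with 1 point per drug list. DHRS3 has the highest ratio in ATRA+Corin (2.15) and CYP26C1 the lowest (1.13).

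Among the transport genes, STRA6 (ENSG00000137868, chr15:74179466-74212267, minus strand) encodes the membrane receptor for the plasma retinol carrier. Its window held 5 regions in DMSO, 4 in ATRA, 6 in Corin and 7 in ATRA+Corin, over 2.97, 4.05, 4.50 and 5.71 kb. The region at the start site (chr15:74202397-74203516, over exon 1 and the neighbouring gene CCDC33) was covered by peaks for 591 bp in DMSO, 1120 bp in ATRA, 529 bp in Corin and 953 bp in ATRA+Corin. The 2 lists with ATRA were thus the longer ones at this promoter, and its −log10 q was 11.1, 25.1, 5.02 and 22.3 in the same order. A second region, which began 452 bp downstream in ATRA+Corin, was covered for 1458, 1863, 1619 and 2497 bp. Only the 2 lists with ATRA had a peak over exon 2, in ATRA a weak one with a −log10 q of 3.06. The ATRA list lacked a region 2246 bp upstream (chr15:74205033-74205451) that DMSO, Corin and ATRA+Corin held at −log10 q of 5.39, 2.35 and 0.936. A region 37179 bp upstream was found in both Corin lists alone, at −log10 q of 4.35 in Corin and 5.25 in ATRA+Corin. The combination alone held a region 7445 bp downstream, over exon 7, at a −log10 q of 2.01.

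CRABP1 (chr15:78340353-78348225, plus strand) had no peak at its start site, and the nearest peak edge lay 12244 to 12473 bp upstream. Its window held 6 regions in each of the first 3 lists and 7 in ATRA+Corin. The region that differed most in length lay 20095 bp downstream of the start site (chr15:78360448-78362443). It was covered for 302 bp in DMSO, 1662 bp in ATRA, 1786 bp in Corin and 1996 bp in ATRA+Corin, with −log10 q of 4.07, 70.2, 40.4 and 78.8. The DMSO peak there was thus narrow and weak, and all 3 drug lists had a broad, strong peak in the same place. The other shared regions of CRABP1 had no such gap: the one 38283 bp upstream, at the SKIC8 start site, spanned 4149, 4276, 4942 and 4479 bp.

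CRABP2 (chr1:156699606-156705816, minus strand) lies in a gene-dense stretch with HDGF, PRCC, MRPL24, ISG20L2, METTL25B, NES and BCAN, so its 9, 9, 11 and 12 regions cannot be assigned to it alone. The region at its own start site (chr1:156705528-156706282) was covered for 575 bp in DMSO, 610 bp in ATRA, 387 bp in Corin and 341 bp in ATRA+Corin. Its −log10 q was 12.2, 28.4, 12.2 and 4.94. The 2 Corin lists had the shorter peaks there, and outside DMSO the peak ended 90 bp (ATRA), 123 bp (Corin) and 200 bp (ATRA+Corin) before the canonical start site. The start site of the RefSeq promoter sequence of CRABP2, at position 156705784, lay under this peak in every list. Whether the start counts as covered thus depends on the transcript. The DR1 shown above lay in this region, centred 451 bp upstream of the canonical start site and under a peak in every list. Of 13893 regions of similar length, 0.396% held a DR1. Both Corin lists, and neither of the others, held regions 40122, 27140 and 20527 bp downstream. The first of these (chr1:156664233-156665461) had a −log10 q of 14.2 in each. The second lay 558 bp from the start site of NES, a gene for an intermediate filament protein, at −log10 q of 9.77 in Corin and 6.98 in ATRA+Corin. A region 37226 bp upstream, over HDGF, was held by DMSO and ATRA (−log10 q of 5.72 and 5.43) and by neither Corin list.

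Among the enzymes that make retinoic acid, RDH10 (chromosome 8, plus strand) oxidises retinol to retinal and shares its start region with the ribosomal protein gene RPL7. That region, over exon 1 in every list and over exon 2 in the drug lists alone, was covered for 2861 bp in DMSO, 3779 bp in ATRA, 3806 bp in Corin and 3707 bp in ATRA+Corin. Its fold enrichment over input was 47.1, 22.2, 21.4 and 36.9 in the same order, and its −log10 q 206, 195, 118 and 182. RDH10 had 4, 4, 5 and 5 regions, and the 2 that DMSO lacked were weak: one 3219 bp upstream in Corin alone (−log10 q of 3.33) and one 27009 bp downstream, in an intron, in ATRA+Corin alone (1.78).

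ALDH1A2 (chr15:57953424-58497866, minus strand) oxidises retinal to retinoic acid. Its annotated body spans 544.4 kb because some transcripts start far upstream of the canonical site at position 58065711, and it runs across the genes AQP9 and LIPC. Of its 31 regions, 15 lay over another gene. Within 50 kb of the canonical start site it had 1 region in DMSO, 2 in ATRA, 3 in Corin and 3 in ATRA+Corin. The start site was uncovered in all lists, and the nearest peak edge lay 21587 bp away in DMSO, 21636 bp in ATRA, 18613 bp in Corin and 7272 bp in ATRA+Corin.

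The strongest region near ALDH1A2 that DMSO lacked lay in an intron 216092 bp upstream of the canonical start site and 2540 bp from another annotated ALDH1A2 start (chr15:58281803-58282669). It was covered for 867 bp in ATRA, 399 bp in Corin and 792 bp in ATRA+Corin, with fold enrichments of 12.0, 3.24 and 9.65 and −log10 q of 37.9, 3.62 and 25.6. The Corin peak was the weak one of the 3. This region held the DR2 shown above, centred 216777 bp upstream (chr15:58282481-58282494) and outside the 300 bases around each list's summit, and 3.78% of 14400 regions of similar length held a DR2. A region 22020 bp upstream of the canonical start site was found in ATRA and ATRA+Corin alone, at −log10 q of 7.09 and 12.7. All 3 drug lists held a region over AQP9, 116779 bp upstream, at −log10 q of 11.5, 12.2 and 6.52. The region at the AQP9 start site, a gene for a glycerol and water channel, was covered for 1908 bp in DMSO, 2435 bp in ATRA, 3453 bp in Corin and 4874 bp in ATRA+Corin. The 4 regions that only DMSO held had −log10 q between 2.59 and 4.90, and the highest of them lay 158508 bp upstream.

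**Figure D3:**
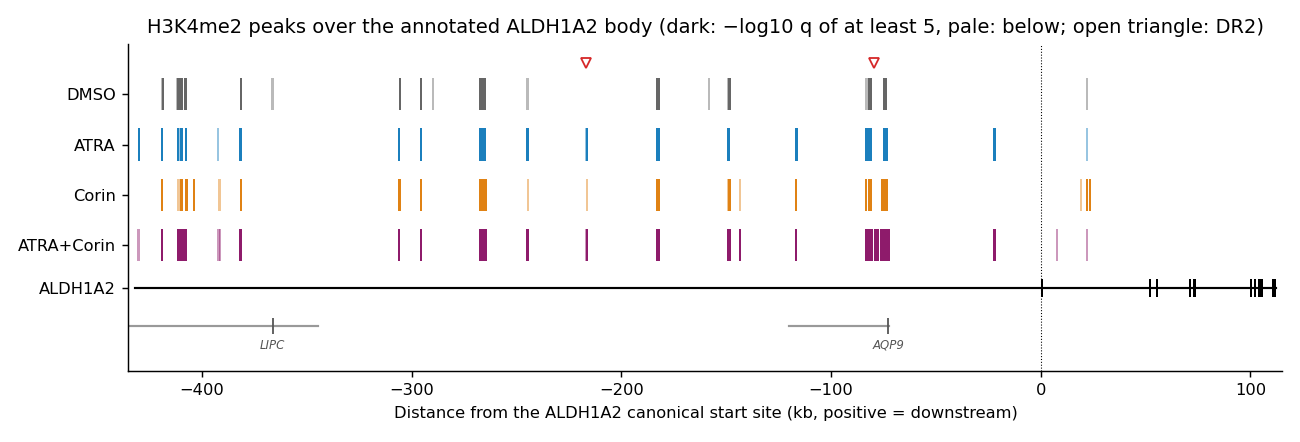
Position of H3K4me2 peaks over the annotated ALDH1A2 body, as distance in kb from the canonical start site, with 1 row of bars per list (dark for −log10 q of at least 5, pale for lower values), exons in black, other coding genes as grey lines with a tick at the start site, and DR2 matches as open triangles. Most peaks lie upstream of the canonical start site, over AQP9, LIPC or between them, and DMSO has no peak under the DR2 at 216777 bp upstream.

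DHRS3 (ENSG00000162496, chr1:12567910-12618210, minus strand), which returns retinal to retinol, had the largest spread in region number between lists of the 9 genes. Its window held 6 regions in DMSO, 9 in ATRA, 7 in Corin and 18 in ATRA+Corin, over 16.4, 24.1, 22.3 and 35.2 kb. The net 12 regions of both drugs over DMSO were equalled or passed by 0.651% of all protein-coding genes, and the 18.8 kb added by 0.536%. ATRA alone added a net 3 regions (4.73% of genes have at least as many) and 7.63 kb (0.451% of genes). Corin alone added 1 region (45.1% of genes) and 5.89 kb (5.97% of genes). DHRS3 lost no region in any of the 5 comparisons.

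The broad H3K4me2 domain at the DHRS3 start site (chr1:12607856-12622520, over exon 1) accounted for part of this. The single peak over the start site was 7194 bp wide in DMSO, 8645 bp in ATRA, 8249 bp in Corin and 14665 bp in ATRA+Corin. Among genes with the start site under a peak, 1.56%, 1.26%, 2.46% and 0.369% had one at least as wide, and the median width was 2525, 2690, 2862 and 2993 bp. In every list this peak ran uninterrupted into the first intron. It reached 4085 bp downstream of the start site in DMSO, 4887 bp in ATRA, 4441 bp in Corin and 10354 bp in ATRA+Corin. Its −log10 q was 163, 327, 137 and 142 in the same order. A second shared region, 10396 bp upstream (chr1:12628606-12633615), was covered for 3369, 4693, 4892 and 4976 bp, at fold enrichments of 24.0, 60.3, 40.4 and 43.9. In the first intron, the region that holds the distal DR5 (chr1:12593640-12597590) also held an alternative DHRS3 start of the RefSeq promoter sequences, at position 12596613. This region was covered for 2080 bp in DMSO, 3766 bp in ATRA, 2598 bp in Corin and 3546 bp in ATRA+Corin. It was longer in the 2 lists with ATRA than in DMSO and Corin, but its fold enrichment was 28.8, 19.8, 30.4 and 12.9 and its −log10 q 159.6, 129, 173 and 55.4, so both values were lower in the lists with ATRA. The region that holds the proximal DR5 (chr1:12600996-12605149) was covered for 1863, 3847, 3742 and 3361 bp, so that all 3 drug lists exceeded DMSO there, and its fold enrichment was 7.71, 14.7, 17.3 and 10.2.

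The regions that DHRS3 gained were fainter than these. The one found in all 3 drug lists lay 29486 bp upstream, over AADACL4 (chr1:12647696-12648609), at −log10 q of 4.31 in ATRA, 12.6 in Corin and 8.45 in ATRA+Corin. The ATRA lists alone shared 2 regions, 17383 and 19815 bp downstream of the start site: the first had a −log10 q of 0.842 in ATRA and 6.79 in ATRA+Corin, the second 5.91 and 3.69. The other 9 were in ATRA+Corin alone, the strongest of them 22374 bp upstream (chr1:12640584-12641047) with a −log10 q of 6.12. When weak peaks, those with a −log10 q below 5, were left out of both lists, the net number was 3 rather than 12, and with lists of equal length it was also 3. The length under peaks held better: its ratio to DMSO for both drugs was 2.15 with all peaks, 1.96 without the weak ones and 1.88 with lists of equal length.

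**Figure D4:**
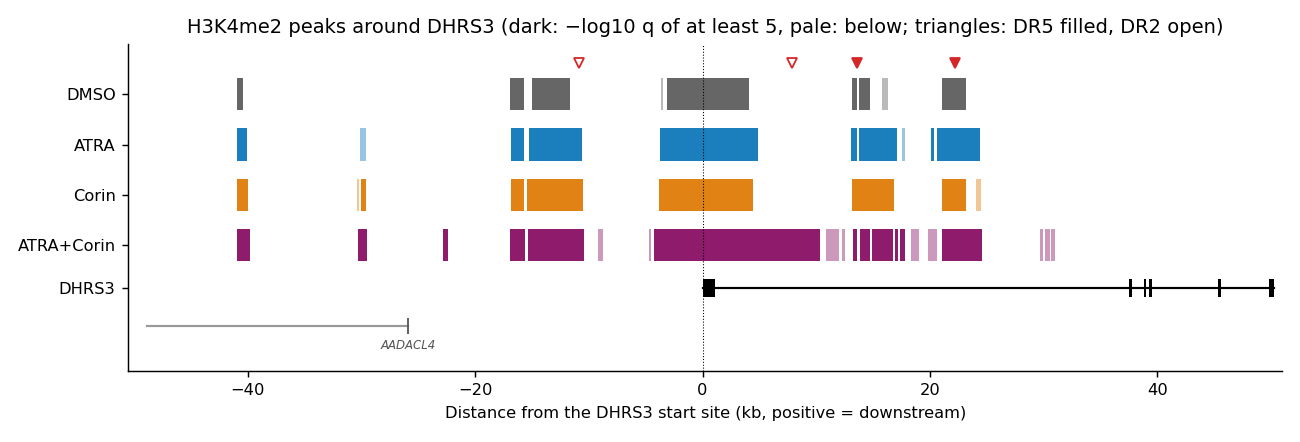
Position of H3K4me2 peaks around DHRS3, as distance in kb from its start site with the gene running to the right, with 1 row of bars per list (dark for −log10 q of at least 5, pale for lower values), exons in black, DR5 matches as filled and DR2 matches as open triangles. The start site domain in ATRA+Corin is 14665 bp wide and is followed in the first intron by small, mostly pale peaks that DMSO lacks.

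Among the enzymes that clear retinoic acid, CYP26A1 (ENSG00000095596, chr10:93073475-93077885, plus strand) had the same 3 regions in every list, with none gained or lost in any of the 5 comparisons. The region at its start site (chr10:93073386-93074472, over exons 1 and 2), which holds the DR5, was covered for 961 bp in DMSO, 921 bp in ATRA, 980 bp in Corin and 1068 bp in ATRA+Corin. Its fold enrichment was 7.65, 17.8, 11.8 and 9.40, and its −log10 q 21.3, 56.9, 28.5 and 29.6. A region 5895 bp downstream, just past the gene (chr10:93079788-93080754), had fold enrichments of 6.67, 22.3, 11.4 and 9.74. At both regions the ATRA list had the highest values and DMSO the lowest, in lists whose peaks are not scaled to each other and of which ATRA also has the highest median −log10 q. The start site peak was narrow, since 94.0% to 96.6% of genes with a covered start site had a peak at least as wide in the same list. Another region, 41422 bp downstream (chr10:93115315-93116686), was covered for 222 bp in DMSO, 1186 bp in ATRA, 1080 bp in Corin and 1299 bp in ATRA+Corin.

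CYP26C1 (chr10:93060798-93069540, plus strand) lies next to CYP26A1 and had no region of its own. Its 2 regions in each list were the CYP26A1 start and downstream regions, 12588 and 18990 bp from its start site. CYP26B1 (chr2:72129238-72147862, minus strand) had 2 regions in each list, and its start site was uncovered in all of them. The intron region 9654 bp downstream (chr2:72137403-72138208) was covered for 372 bp in DMSO, 772 bp in ATRA, 500 bp in Corin and 789 bp in ATRA+Corin, with −log10 q of 6.72, 20.3, 7.36 and 16.8. The region 2563 bp upstream (chr2:72150425-72150895) was covered for 299, 355, 234 and 308 bp, with −log10 q of 2.01, 12.5, 9.83 and 11.8. The intron region was thus longer in both ATRA lists than in DMSO and Corin, and the upstream one was weakest in DMSO.

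**Figure D5:**
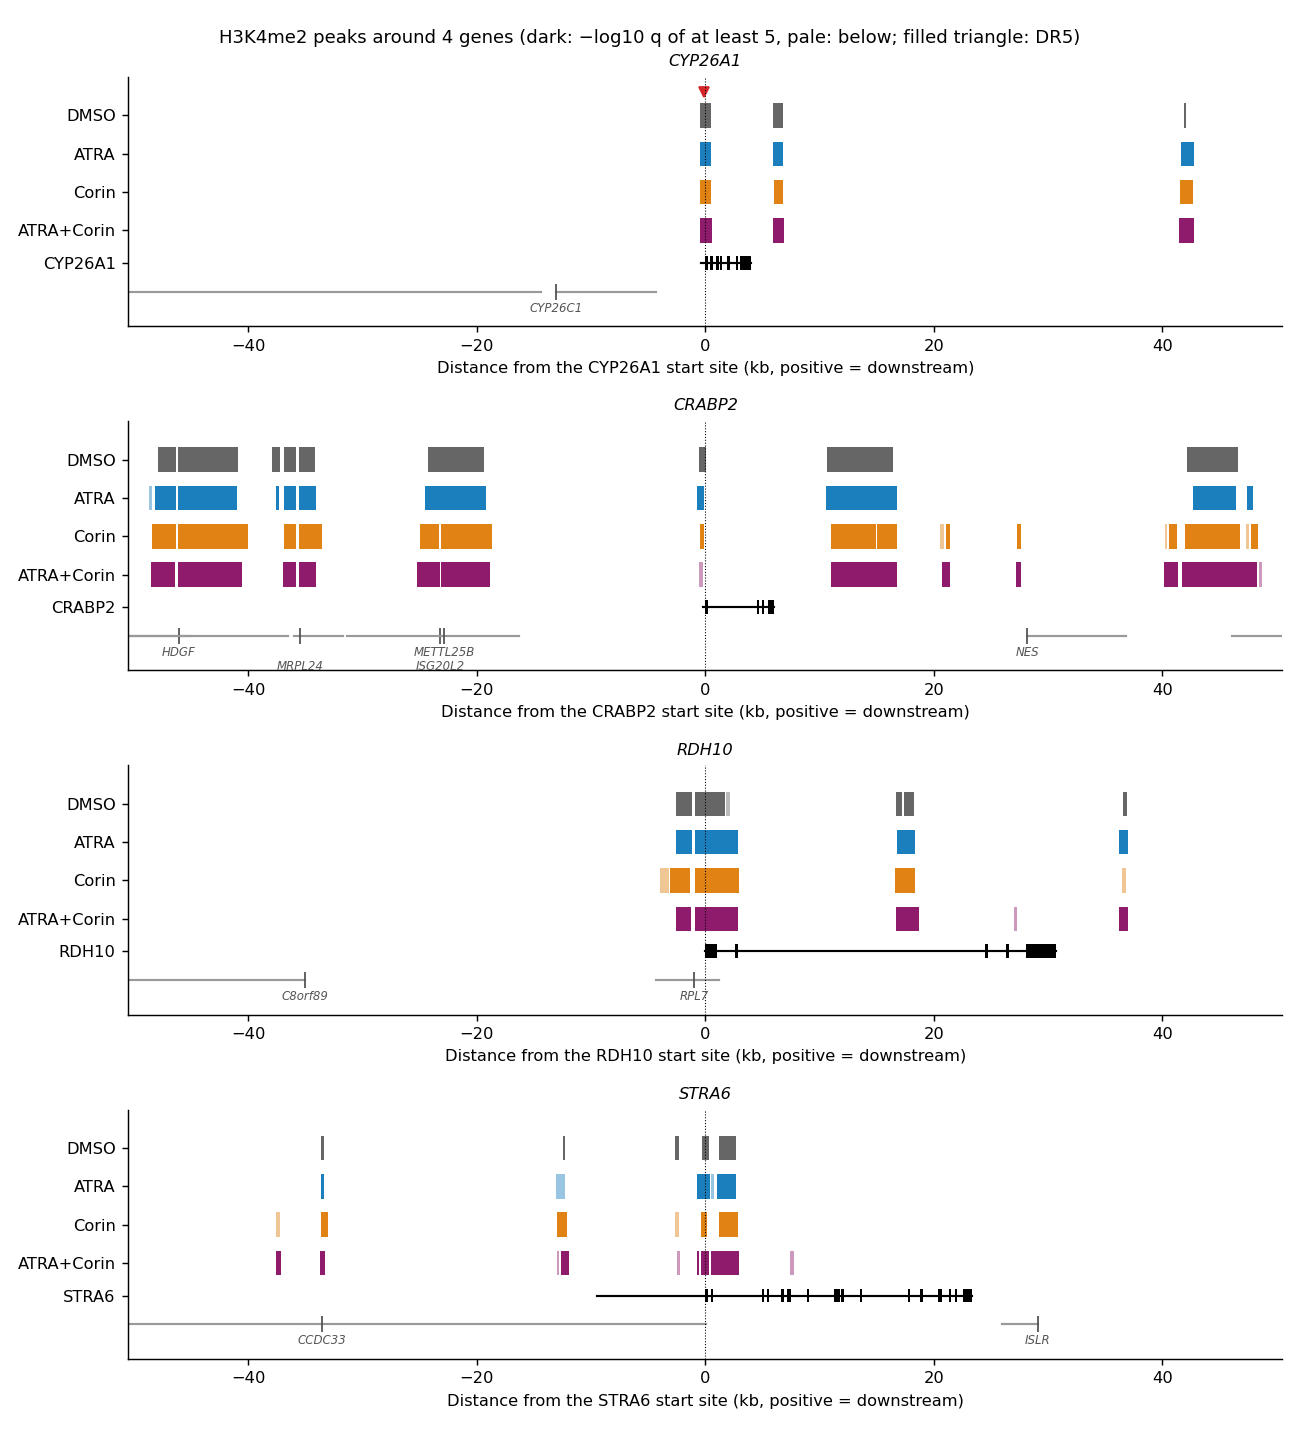
Position of H3K4me2 peaks around CYP26A1, CRABP2, RDH10 and STRA6, as distance in kb from each start site with the gene running to the right, drawn as bars for each list (dark for −log10 q of at least 5, pale for lower values) above the gene's exons and its coding neighbours. CYP26A1 has 3 regions in every list, the farthest of them covered for 222 bp in DMSO and 1080 bp or more in the drug lists, and CRABP2 has regions 20527 to 40122 bp downstream that are present in the Corin lists alone.

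Widening of a region that every list held was seen across roles. Of the 45 shared regions, 4 (8.89%) were at least 3 times as long in each of the 3 drug lists as in DMSO, beside 1.19% of the 43264 such regions in the study, a threshold chosen after the values were seen. They were the CRABP1 region 20095 bp downstream (5.50, 5.91 and 6.61 times in ATRA, Corin and ATRA+Corin), the CYP26A1 region 41422 bp downstream (5.34, 4.86 and 5.85 times), an ALDH1A2 intron region 305488 bp upstream (3.62, 3.45 and 4.85 times) and a STRA6 region 11935 bp upstream (3.41, 3.99 and 3.94 times). Each was at most 302 bp in DMSO, and the 3 ratios of a region share that DMSO length. At the STRA6 region the −log10 q was 11.3 in DMSO, 4.67 in ATRA, 13.2 in Corin and 6.23 in ATRA+Corin. Both ATRA lists thus had a longer but weaker signal there than DMSO. At each of the other widened regions the −log10 q was lowest in DMSO.

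The other 36 genes of retinoid biology examined, which bind, store, cleave or oxidise retinoids, all had an annotated window, and their windows can overlap. With ATRA against DMSO, 11 of 36 had an added region (30.6%, beside 42% of all genes) and 7 a lost one (24.8% of all genes). With Corin 21 had an added region (58.3%, beside 54%), and with both drugs 22 (61.1%, beside 67.8%). None of these shares was far above that of genes at large. At least 2 net regions for both drugs over DMSO were found at 12 of the 36 genes, below the 41.3% of all protein-coding genes. The HDL receptor gene SCARB1 and the carotenoid cleavage gene BCO2 had a net 5 each, both with 13 regions in DMSO and 18 in ATRA+Corin. RBP7, FABP5, RDH5 and DHRS4 had a net 4 each, BCO1 and AKR1C3 a net 3, and LRP2, RDH8, DHRS9 and ALDH1A3 a net 2. AKR1C3, a retinal and steroid reductase, had 0 regions in DMSO, 2 in ATRA, 2 in Corin and 3 in ATRA+Corin, with its start site under a peak in every drug list. RDH13 alone had fewer regions in the combination, by 1.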

How the data were processed

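H3K4me2 and input were sequenced in U-937 cells, and 1 peak list per treatment, deposited by the authors, was used; how its 2 H3K4me2 libraries were combined is not given in the sources used here. Groups came from the sample titles. Per the submitters' processing notes, Trimmomatic, Bowtie2, Picard and MACS2 were used with hg38 (GRCh38); their settings are not given in the sources used here. Each deposited peak has a score (10 times the −log10 p, capped at 1000), a fold enrichment ratio over input, −log10 p and −log10 q, and another value, the summit's offset, all from the authors. Fold and −log10 values described, ranked or filtered peaks within a list. Those given for a region are of its strongest peak in each list. The lists carry peak numbers with gaps: of the 30000 lowest numbers, 18 (DMSO), 16 (ATRA), 22 (Corin) and 17 (ATRA+Corin) were not analysed here. Depth per library is not given by the lists.

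Peaks that overlapped or touched were joined into regions, present in a list when they held 1 of its peaks. A region was gained or lost when 1 list of a pair held it and the other did not, and the net number is the difference in regions held. Windows joined the gene body and 50 kb on each side of the canonical start site (GENCODE 44, chromosomes 1 to 22 and X). Every comparison was also made over all 19970 protein-coding genes. Described were all regions at a member's start site, the strongest gained and lost ones (up to 3 in each direction), and other pathway genes with at least 2 net regions for both drugs against DMSO; remaining regions named were picked after their values were seen. The result of 1 further marker list is not reported here. Motifs were counted in regions within 25% of the same length. Coordinates count from 1. The members and lists were chosen with earlier results of these data known. Alternatives covered the peak strength, the number of peaks, the joining of peaks and the window. Region counts were tested on simulated data: 200 of 200 planted regions were recovered. Python 3.11.15, numpy 2.4.6, pandas 2.3.3 and matplotlib 3.10.9 were used.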

Additional observations from a re-analysis of the deposited data

Results flagged for a closer look

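At STRA6, the net number of regions with ATRA differed in direction with and without Corin. ATRA against DMSO gave a net -1, because the region 2246 bp upstream was absent from the ATRA list, and ATRA+Corin against Corin gave a net 1, from the region 7445 bp downstream. Both regions had a −log10 q of at most 5.39 in the lists that held them. The difference was not tested, since each treatment has 1 list.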

How the results depend on the processing

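The net number of regions near the 9 genes for both drugs against DMSO was 26. It was 13 without weak peaks (−log10 q below 5) in any list, 12 with strong peaks required only on the side that holds the region, 9 with lists of equal length, 14 with peaks within 1 kb merged, 4 within 10 kb of the start site, 17 with the gene body and 1 kb before the start site, and 14 with DHRS3 left out. Against ATRA the main value of 22 was 7, 7, 6, 12, 5, 14 and 13 under the same settings, and against Corin the value of 18 was 7, 3, 3 and 7 under the first 4, 3 within 10 kb and 7 without DHRS3. ATRA against DMSO gave 4, which was 2 with merged peaks, -1 within 10 kb, 9 within 100 kb or the gene body, 2 without ALDH1A2 and 1 without DHRS3. Corin against DMSO gave 8, which was 13 with single peaks, 1 within 10 kb, 3 with the gene body and 5 without ALDH1A2. Leaving out ALDH1A2 or DHRS3 was chosen after seeing the data. Without weak peaks the net number became -1 for CRABP2 (both drugs against Corin), RDH10 and STRA6 (Corin against DMSO), each 1 with all peaks, and STRA6 was also -1 within 100 kb; the cause was not tested. The length ratio for all members ranged from 1.48 to 1.80 across the settings for both drugs over DMSO. No paired analysis was possible because each treatment has 1 list, and for the same reason no replicate could be left out. The lists give no depth, so a region that a list lacks may lie below its detection limit.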
